A study of Mus musculus with 10 samples.

Results

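The genes described here encode the protein components of the cytosolic ribosome. They were taken from the annotation of the array by name: every gene symbol that begins with Rpl or Rps and a digit, together with Rplp0, Rplp1, Rplp2 and Rpsa, was kept, while Rpl10l, the ribosomal S6 kinases, pseudogene symbols and Rps19bp1 were left out. This gave 67 genes out of 22180 measured, 41 of the large subunit (Rpl) and 26 of the small subunit (Rps). Among the 67 are 9 whose symbols mark them as paralogues or retroposed copies of another member (Rpl22l1, Rpl32l, Rpl39l, Rpl3l, Rpl6l, Rpl7l1, Rps23rg1, Rps27l and Rps4l). A further 14 symbols that meet the name rule, such as Rpl10, Rpl13a and Rps2, stand only on probe sets that list several genes and were not analysed here.

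The samples are primary mouse embryonic fibroblasts, taken from dorsal skin at embryonic day 13.5, per the labels. Zbtb4 knock-out cells were measured on 5 arrays and wild-type cells on another 5. No treatment is named, and the labels give neither the strain nor the part of Zbtb4 that was removed. Whether the arrays of a genotype stand for separate embryos is not said either. The p-values therefore speak only of the spread among these arrays. Part of it may be technical, but arrays of 1 genotype also differ in Y-linked signal (given with the array checks), so they are not all repeats of 1 RNA. Zbtb4 is a zinc finger factor of the Kaiso family with affinity for methylated CpG, and the design asks which transcripts depend on it.

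Ribosomal proteins assemble with ribosomal RNA into a small subunit, which reads the mRNA, and a large subunit, which forms the peptide bond. Their mRNAs belong to a class that starts with a run of pyrimidines at the cap, the 5′ terminal oligopyrimidine (TOP) tract, through which mTOR and Larp1 control translation. They are among the most abundant mRNAs of growing fibroblasts, and several of the proteins, Rpl5 and Rpl11 first among them, bind Mdm2 and so link faulty ribosome assembly to p53.

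RefSeq start-site windows (assembly GRCm38.p6, 250 bases before to 50 bases after each annotated start) were found for 52 of the 67 genes, in 61 windows. They are shown because they hold what these genes share beyond their names: CpG sites, which Zbtb4 can bind when methylated, and the pyrimidine run. The lines give 30 bases around that run for some of the members named in the results, 5′ to 3′ on the gene's strand, with the run in capitals. Counted from the annotated start, the run began at -5 to 3 for Rplp2, Rps27, Rpl38, Rps6, Rpl22l1 and Rps26. It began at 13 for Rpl11, 17 for Rpl10a, 25 for Rps15 and -22 for Rps27l. In named members not printed it began at -25 (Rpl39l) to 39 (Rps19). A run in capitals is therefore not always at the cap, and whether it is a TOP tract was not tested.
Rps6, chr4:86857347-86857376, minus strand: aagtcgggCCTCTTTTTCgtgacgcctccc
Rps26, chr10:128626482-128626511, minus strand: ccgccggaTCCTCTTTCgagtcttggctcc
Rps27, chr3:90213629-90213658, minus strand: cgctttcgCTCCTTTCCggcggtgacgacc
Rps15, chr10:80292448-80292477, plus strand: agcccgtaCTTCCTTTTCCgagtaaccgcc
Rplp2, chr7:141447638-141447667, plus strand: cgtcagcgTCTTCCTTTCgccgccggacgc
Rpl38, chr11:114668570-114668599, plus strand: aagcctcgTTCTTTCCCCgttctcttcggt
Rpl10a, chr17:28328574-28328603, plus strand: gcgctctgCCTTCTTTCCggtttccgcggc
Rpl11, chr4:136053359-136053388, minus strand: gccggaagTCTCCCTCTCTCTTCCTgttct
Rps27l, chr9:66946056-66946085, plus strand: cgcctccaCTCCTCTCCactcctccccgcc
Rpl22l1, chr3:28805501-28805530, plus strand: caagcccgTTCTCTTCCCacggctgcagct

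An unbroken run of at least 8 C or T letters lay between 25 bases before and 50 bases after the start in 42 of the 61 windows (68.9%), against 27.2% of 32851 windows over all genes. The binding core of ETS factors, CCGGAAG on either strand, was found in 37.7% of the members' windows and 8.86% of all. The Sp1 box GGGCGG was found in 49.2% against 35.7%, the YY1 core AAGATGG in 11.5% against 6.34%, and the TATA box TATAAA in 9.84% against 13.6%. A median of 21 CpG sites lay in the members' windows and a median of 7 in all windows, and at least 10 CpG sites were present in 90.2% of the members' windows and 43.5% of all. The 6 member windows with fewer CpG sites belong to Rpl3l (both of its starts), Rpl32l, Rps23rg1, Rpl6 and 1 of 2 starts of Rpl22. The site TCCTGCNA, bound by the related factor Kaiso, occurred in 1 window, that of Rps23rg1, or 1.64% of the members' windows against 4.96% of all. These are matches of letters, and methylation or binding was not measured here.

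The values are the authors' deposited log2 signals, and all differences are knock-out minus wild type. Zbtb4 itself gave 5.04 to 5.76 on the knock-out arrays and 5.94 to 6.23 on the wild-type arrays. Its difference was -0.62 (limma adjusted p = 0.628). Fibroblast markers such as Col1a2 (11.63 in both genotypes) and Vim (12.11 and 12.14) had high signals. Some markers of other cell types leaned to the knock-out. The 8 leukocyte genes, 7 of them with a higher knock-out mean, averaged 3.89 to 5.04 on knock-out and 4.09 to 4.35 on wild-type arrays. The 6 endothelial genes, 5 of them higher, averaged 3.72 to 3.99 and 3.57 to 3.97. Among them Cdh5, the cadherin of endothelial junctions, was 0.61 higher in the knock-out with no overlap between genotypes (limma adjusted p = 0.628), and it was the 1 of 6 at an unadjusted p under 0.05. The 5 epithelial genes averaged 3.06 to 3.32 and 3.15 to 3.31, and the 5 skeletal muscle genes 5.13 to 5.53 and 4.89 to 5.52, with 1 of the 5 at an unadjusted limma p under 0.05, the skeletal actin gene Acta1 at 0.66. Of the 3 erythroid genes measured, 2 had a higher knock-out mean at an unadjusted limma p under 0.05, with list averages of 2.49 to 2.73 and 2.41 to 2.54 that lie below the median of every array. Over all genes, 5.98% had an unadjusted limma p under 0.05. The part of these markers in the results on ribosomal protein genes was not tested. Y-linked genes stood high on arrays 1 and 3 of each genotype (means of 5.89 to 6.42) and low on the others (2.49 to 2.78).

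Ribosomal protein genes had nearly the same signal in knock-out and wild-type fibroblasts. None of the 67 passed limma's test at an adjusted p under 0.05, as none of the 22180 genes did (0%). At an unadjusted p under 0.05, limma found 0 of the 67 members, while 5.98% of all genes lay under that level. Limma's standard errors draw on the variance of all genes, which widens those of steady members. An exact permutation test, which does not do so, put 4 of the 67 under 0.05, against 5.8% of all genes. The smallest unadjusted limma p among the members was 0.0765, for Rps15, with an adjusted p of 0.839. The median log2 difference was -0.0035 over the 67 members and 0.0020 over all genes, and 29 members had a higher and 38 a lower mean in the knock-out. A member differed by a median of 0.036 in either direction, compared with 0.078 for all genes. The quartiles of the members' differences were -0.049 and 0.024. Those of 29 translation factor genes were -0.043 and -0.0091, and those of 71 mitochondrial ribosomal protein genes -0.046 and 0.029. Small differences were thus not particular to the members. In 55 members the difference was under 0.1, and in 40 it was under 0.05.

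Both subunits gave this picture. Of the 41 large-subunit genes, 18 had a higher and 23 a lower mean, with a median difference of -0.0032. Of the 26 small-subunit genes, 11 had a higher and 15 a lower mean, with a median of -0.0051. The 9 paralogues had a median of 0.023 and the other 58 genes one of -0.0046. These medians lie so near 0 that leaving out 1 array turned their sign. The median over all members ran from -0.014 without wild-type array 2 to 0.0059 without wild-type array 5. That of the small subunit ran from -0.021 to 0.015 without the same arrays. The large-subunit median ran from -0.011 without knock-out array 1 to 0.0027 without knock-out array 2, and that of the paralogues from -0.0094 without knock-out array 3 to 0.054 without knock-out array 2.

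**Figure D1:**
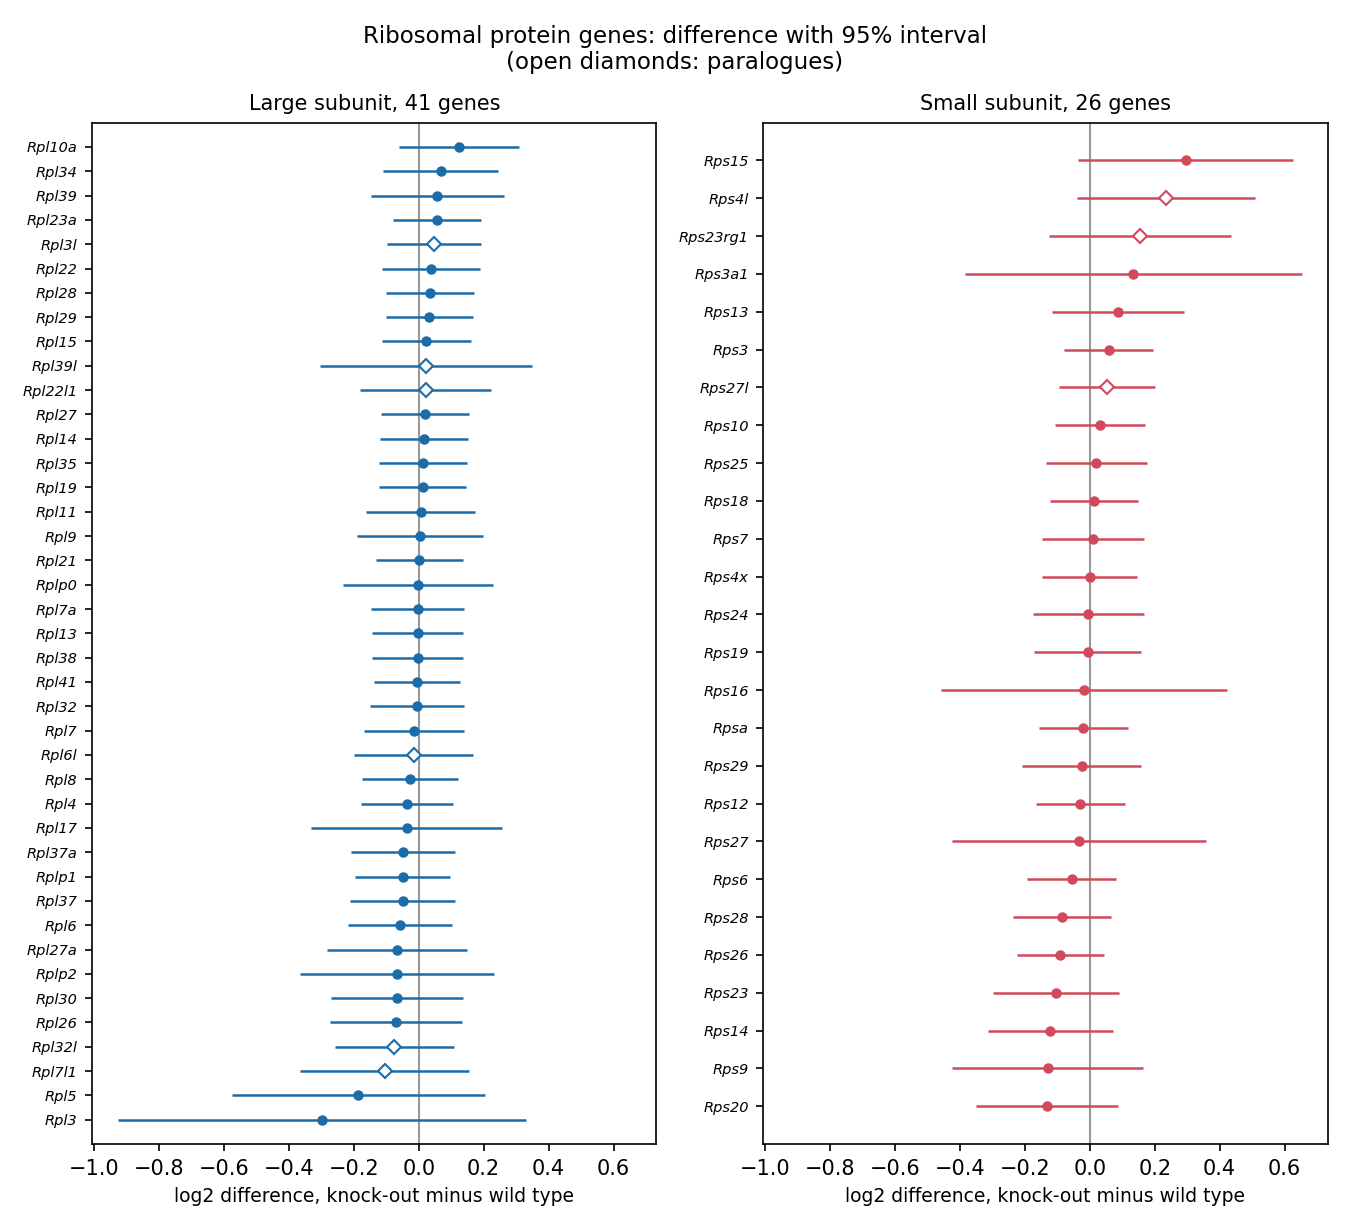
Log2 difference between knock-out and wild-type fibroblasts for each of the 67 ribosomal protein genes (41 of the large subunit on the left, 26 of the small subunit on the right), with limma's 95% interval as a line. Filled circles are the main genes and open diamonds the paralogues. Every interval includes 0, and the widest belong to Rpl3, Rps3a1 and Rps16.

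The intervals say how large a change in signal limma's fit leaves room for. They rest on limma's standard errors, which for the steadiest members are larger than those from their own arrays. For Rpl21 these were 0.062 and 0.014. The whole 95% interval lay within 0.2 of 0 on the log2 scale, a 1.15-fold change, for 33 of the 67 genes. It lay within 0.32 for 53 genes and within 0.58, a change of 1.5-fold, for 64 genes. The 3 genes with wider intervals were Rpl3, from -0.93 to 0.33, Rps3a1, from -0.39 to 0.65, and Rps15, from -0.036 to 0.63. No source used here says how the arrays were scaled to each other, so the differences are relative to the other genes, and RNA per cell was not measured. How far a change in mRNA shows as a change in signal, for bright or dim probe sets, was not tested either. The intervals are thus not bounds on the change in mRNA.

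The members were steady from array to array as well as between genotypes. On each array the median deviation of the 67 genes from their own means was small. It was 0.039 on knock-out array 1, -0.011 on array 2, 0.013 on array 3, -0.0058 on array 4 and -0.0068 on array 5. In the wild type it was 0.0062, -0.0041, 0.0098, -0.0093 and 0.022 on arrays 1 to 5. The genotypes overlapped: the mean was 0.0056 ± 0.021 for knock-out arrays and 0.0048 ± 0.012 for wild-type arrays (SD, n = 5 each). From 40 of the 67 genes (knock-out array 3) to 58 (wild-type array 3) lay within 0.1 of their mean on a single array. The share of all genes within 0.1 was not counted, so these counts do not set the members apart. Knock-out array 3 held the highest value of 16 genes, knock-out array 1 of 14 and wild-type array 5 of 13, and the remaining 24 were spread over 7 arrays.

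**Figure D2:**
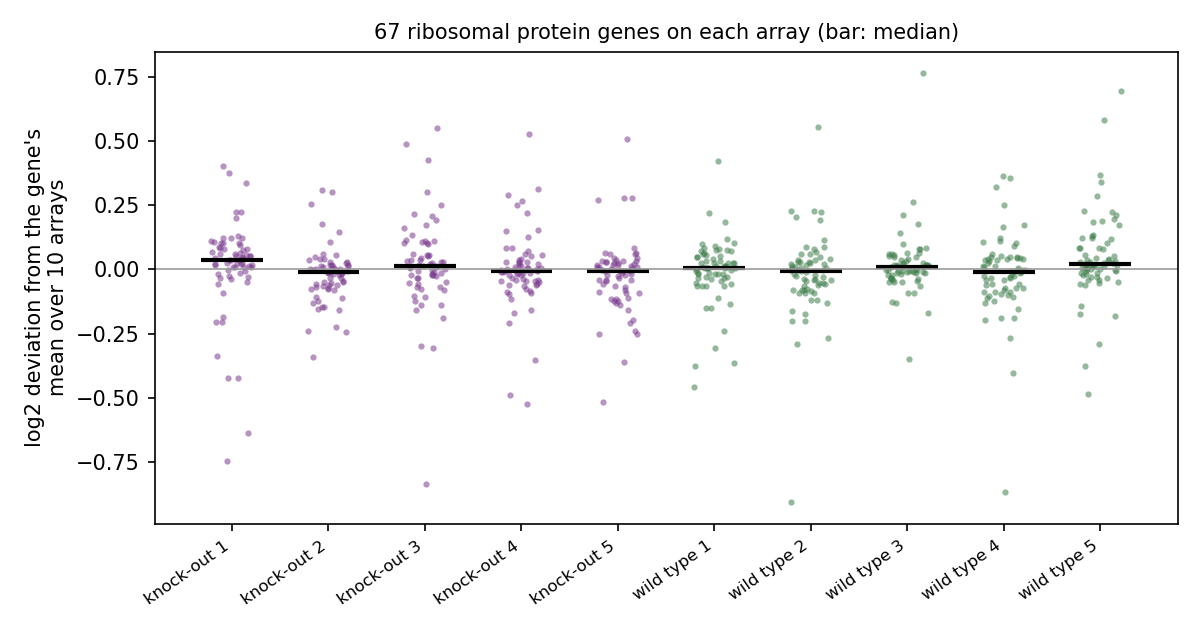
Deviation of each of the 67 genes from its own mean over the 10 arrays, in log2 units, with 1 point per gene and a black bar at the array's median. The medians run from -0.011 to 0.039 and those of the knock-out and wild-type arrays overlap.

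The spread between arrays of 1 genotype differed widely among the members. Whether it came from the measurement or from the cells was not tested. The within-genotype SD ran from 0.022 for Rpl21 and Rpl41 to 0.57 for Rpl3, with a median of 0.087, where the median of all genes was 0.16. The median SD was 0.088 for 29 translation factor genes and 0.12 for 71 mitochondrial ribosomal protein genes. A low median spread was thus not particular to the members. In 19 members the SD was under 0.05, a spread that 147 of all 22180 genes showed. The summarised signal of a probe set depends on its probes as well as on the mRNA, so signals of different genes are not ranked here. As a description, 34 members had a mean above 10, 8 lay between 7 and 10, 22 between 4 and 7, and 3 under 4. The median SD was 0.043 for the 34 brightest members and 0.078 for the 306 genes of the whole array with a mean above 10. For the 22 members between 4 and 7 it was 0.15, near the 0.17 of the 8424 genes at that level. The 3 members under 4, which also lay below the median of every array (3.89 to 3.93), were Rpl32l (1.94), Rpl3l (2.66) and Rps23rg1 (3.03), all of them paralogues.

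**Figure D3:**
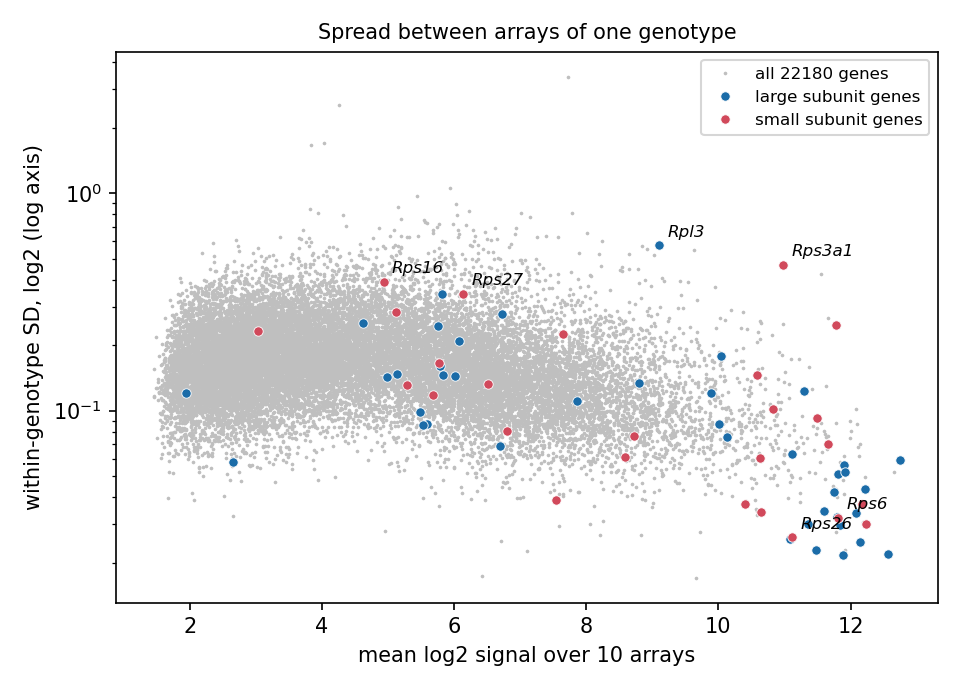
Within-genotype SD (log axis) against mean log2 signal for all 22180 genes (grey), large-subunit genes (blue) and small-subunit genes (red). Most members with a mean above 10 lie along the lower edge of the cloud, with a median SD of 0.043, while Rpl3, Rps3a1, Rps16 and Rps27 lie high.

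Limma draws each gene's variance towards that of the whole array, here a prior SD of 0.15 with 5.05 degrees of freedom beside the 8 residual ones. For the steadiest members the standard error it used was therefore larger than the one from their own arrays. Rps26, a small-subunit protein at the mRNA exit channel, shows this. Its knock-out arrays gave 11.09, 11.07, 11.09, 11.07 and 11.03, and its wild-type arrays 11.19, 11.18, 11.16, 11.15 and 11.11. All 5 knock-out values lay below all 5 wild-type values, so that Rps26 was the 1 member of 67 whose genotypes did not overlap, where 0.987% of all genes did not. The difference was -0.090, a signal 6.06% lower, with a standard error of 0.017 from its own arrays and 0.062 after moderation. An exact permutation test (two-sided) gave p = 0.00794, the lowest possible with 5 arrays against 5, while limma's unadjusted p was 0.171 and its adjusted p 0.852.

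A second probe set for Rps26 went the other way. It gave 9.33, 9.19, 9.42, 9.21 and 9.29 on the knock-out arrays and 9.27, 9.23, 9.17, 9.02 and 9.24 on the wild-type arrays. These values overlapped and had a mean 0.10 higher in the knock-out (standard error 0.077). Averaging both probe sets left a difference of 0.0057, so the direction for Rps26 depended on the probe set.

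The exact permutation test found 3 other members at p under 0.05, which makes 4 of 67, while 5.8% of all genes lay under that level. Rps6, the ribosomal protein that S6 kinases phosphorylate, gave 11.82, 11.82, 11.74, 11.74 and 11.79 in the knock-out and 11.82, 11.86, 11.83, 11.85 and 11.84 in the wild type. Wild-type array 1 lay just below the 2 highest knock-out arrays, and the difference was -0.056 (exact permutation p = 0.0317). Rpl23a, which lies at the exit of the peptide tunnel, differed by 0.055 (exact permutation p = 0.0159) and Rpl29 by 0.033 (exact permutation p = 0.0317). These p-values are unadjusted, Rpl23a and Rpl29 were singled out after their values were seen, and the limma adjusted p of these 3 genes ran from 0.904 to 0.949.

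The members with the smallest limma p on the higher side were Rps15, Rps4l, Rpl10a, Rps23rg1, Rps13 and Rps3, and none passed. Rps15, a protein of the small subunit's head, had knock-out values of 5.17, 5.30, 5.67, 5.34 and 4.87 and wild-type values of 4.67, 4.96, 5.34, 5.16 and 4.75. The mean was 5.27 ± 0.29 on knock-out and 4.97 ± 0.28 on wild-type arrays (SD, n = 5 each). Its difference of 0.30 had a standard error of 0.15, and the arrays of the genotypes overlapped over most of their range. Rpl10a, a large-subunit protein near the exit site, differed by 0.12, with wild-type arrays from 11.01 to 11.40 and knock-out arrays from 11.30 to 11.40. Rps13 differed by 0.087 and Rps3, a protein at the entry of the mRNA channel, by 0.058. Their limma adjusted p-values were 0.901 and 0.904. The Rpl10a difference came to 0.067 without wild-type array 5 and that of Rps13 to 0.032 without wild-type array 2.

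On the lower side the smallest p-values belonged to Rps26, Rps14, Rps20, Rps28, Rps23 and Rpl5. Rps14 had a mean of 5.23 ± 0.071 on knock-out and 5.35 ± 0.17 on wild-type arrays (SD, n = 5 each). Rps20 differed by -0.13, Rps28 by -0.086 and Rps23, a protein of the decoding centre, by -0.10. All 4 overlapped between genotypes and had limma adjusted p-values from 0.857 to 0.875. The Rps14 difference came to -0.052 and that of Rps20 to -0.043 with a single array left out (wild-type array 5 and knock-out array 1). Without wild-type array 4 the Rps23 difference came to -0.056.

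**Figure D4:**
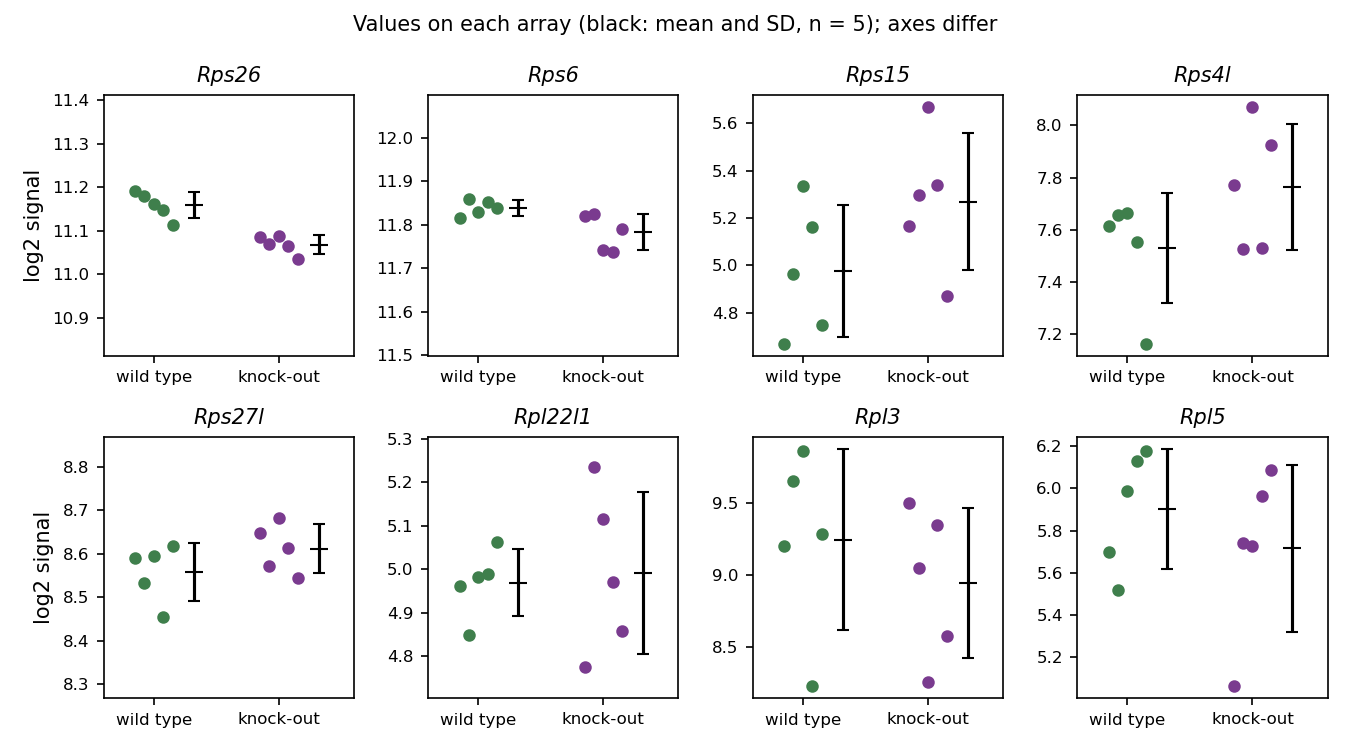
Log2 signal on each array for 8 members, with wild-type arrays in green, knock-out arrays in purple and the mean and SD (n = 5) in black; the vertical axes differ between panels. The genotypes do not overlap for Rps26, at 11.03 to 11.09 against 11.11 to 11.19, and they overlap in the other 7 panels.

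Rpl5 and Rpl11, which carry the 5S ribosomal RNA and bind Mdm2, did not pass. Rpl5 gave 5.06, 5.74, 5.73, 5.96 and 6.09 in the knock-out and 5.70, 5.52, 5.99, 6.13 and 6.18 in the wild type. Knock-out array 1 was the lowest of all 10, and without it the difference of -0.19 came to -0.023. Rpl11 differed by 0.0056, with means of 5.49 ± 0.085 and 5.48 ± 0.11 (SD, n = 5 each). Rps19, the protein most often altered in Diamond-Blackfan anaemia, differed by -0.0059 around a mean of 11.5. Rpl38, known for its part in the translation of Hox mRNAs, differed by -0.0035, with a 95% interval from -0.14 to 0.14.

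The P-stalk proteins, which recruit elongation factors to the large subunit, did not pass. Rplp0 differed by -0.0016, Rplp1 by -0.049 and Rplp2 by -0.067, and the limma adjusted p-values ran from 0.927 to 0.999. The Rplp2 difference turned to 0.016 without wild-type array 4. On the probe sets used, within-genotype SDs were 0.18 for Rplp0, 0.25 for Rplp2 (at a mean of 4.63) and 0.059 for Rplp1. On their second probe sets the SD was 0.081 for Rplp0 and 0.20 for Rplp1, where Rplp1 differed by 0.061. The order of these SDs and the sign for Rplp1 thus depended on the probe set. Rpsa, the small-subunit protein also known as the laminin receptor precursor, differed by -0.020 with an interval from -0.16 to 0.12.

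The paralogues were measured beside the genes they resemble. Rps27l, a paralogue of Rps27 and a known p53 target, gave 8.65, 8.57, 8.68, 8.61 and 8.54 in the knock-out and 8.59, 8.53, 8.60, 8.45 and 8.62 in the wild type. The values overlapped, and the difference of 0.053 had a 95% interval from -0.093 to 0.20 (limma adjusted p = 0.921). Rps27 itself differed by -0.034 with a wide interval from -0.43 to 0.36. Wild-type array 5 stood at 6.82 and the other 9 arrays between 5.78 and 6.42, and without that array the Rps27 difference turned to 0.14.

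Rpl22l1, whose mRNA is known to rise when Rpl22 is lost, had a mean of 4.99 ± 0.19 on knock-out and 4.97 ± 0.077 on wild-type arrays (SD, n = 5 each). Rpl22 differed by 0.038. Rpl39l, a form enriched in testis, differed by 0.023 and Rpl39 by 0.057. Rpl3l, the form of striated muscle, differed by 0.048 and Rpl7l1 by -0.10, against -0.013 for Rpl7. Without knock-out array 1 the Rpl7l1 difference came to -0.012. None of these 7 genes passed, with limma adjusted p-values from 0.908 to 0.989.

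Rps4l, the autosomal relative of the X-linked Rps4x, had the second smallest limma p of all members. Its knock-out arrays gave 7.77, 7.52, 8.07, 7.53 and 7.93 and its wild-type arrays 7.61, 7.66, 7.66, 7.55 and 7.16. Wild-type array 5 was the lowest by a wide margin, and 2 knock-out arrays lay below the other 4 wild-type values. The difference of 0.24 (limma adjusted p = 0.841) came to 0.14 without wild-type array 5. Rps4x differed by -0.00054 and ranged from 10.53 to 10.70 over all arrays. Rps23rg1, a retroposed copy of Rps23, differed by 0.15 at a signal near 3, with knock-out arrays from 2.69 to 3.53 and wild-type arrays from 2.89 to 3.03. It came to 0.047 without knock-out array 5.

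Large spread between arrays marked Rpl3, Rps3a1, Rps16 and Rps27. Rpl3, at the peptidyl transferase centre of the large subunit, gave 9.50, 9.05, 8.26, 9.35 and 8.58 in the knock-out and 9.20, 9.65, 9.86, 8.23 and 9.28 in the wild type. Both genotypes covered a wide range, and the knock-out minus wild-type difference came to -0.30 (standard error 0.29). A second bright probe set for Rpl3 differed by -0.29 and ran from 8.18 to 9.10. Its 2 lowest values were on knock-out arrays 2 and 4, while those of the first probe set were on wild-type array 4 and knock-out array 3. Leaving out wild-type array 4 moved the Rpl3 difference to -0.55 (limma adjusted p = 0.888). It came to -0.14 without wild-type array 3 and to -0.13 without knock-out array 3. Rps3a1 had its lowest values on wild-type array 2 (10.07), knock-out array 4 (10.49) and wild-type array 4 (10.58), against 10.92 to 11.40 elsewhere. Rps16 ran from 4.30 on knock-out array 1 to 5.51 on wild-type array 5 and differed by -0.018.

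Where a gene had more than 1 probe set, none told of a difference either. The 67 genes carried 108 probe sets of their own, of which 7 repeated the values of another, and none of the 101 distinct ones had an unadjusted limma p under 0.05. In 14 of the 24 genes with several distinct probe sets the sign of the difference was not the same for all of them. In 19 of the 24 the probe sets of 1 gene lay more than 1 log2 unit apart. Probe sets of Rpl41, for example, differed by -0.030 to -0.0050 although their means ran from 7.50 to 12.56. Many pseudogene copies share sequence with these genes, and how far they add to a signal was not tested.

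Members were also placed relative to Zbtb4. Of the 5 members on chromosome 11, where Zbtb4 lies, Rpl26 is the closest, with 42 protein-coding genes between them in the RefSeq order. Rpl26 had a mean of 5.98 ± 0.17 on knock-out and 6.05 ± 0.12 on wild-type arrays (SD, n = 5 each), a difference of -0.071. Rpl23a, Rpl19, Rpl27 and Rpl38 differed by 0.055, 0.013, 0.020 and -0.0035. For the X-linked members, the arrays high in Y-linked genes had Rps4x at 10.60 to 10.70 and the others at 10.53 to 10.66. Rpl39 was at 5.12 to 5.35 and 4.93 to 5.35, so the ranges overlapped for both genes.

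The rest of the translation apparatus was compared by its counts and medians. Fau, which encodes ribosomal protein S30 fused to a ubiquitin-like protein, differed by 0.0033 around a mean of 11.77. Mitochondrial ribosomal protein genes, which serve the separate ribosome of mitochondria, had a median of -0.0081 over 71 genes, with 33 higher and 38 lower means. Its sign turned with 1 array left out, from -0.026 without knock-out array 1 to 0.015 without knock-out array 2. Of the 71, 1 (1.41%) had an unadjusted limma p under 0.05, against 5.98% of all genes. This was Mrpl32 at -0.23 (limma adjusted p = 0.821). Ribosome biogenesis genes had 11 higher and 29 lower means among 40, with a median of -0.025 that ran from -0.074 without wild-type array 1 to -0.0012 without wild-type array 3. Ubtf, an activator of RNA polymerase I, differed by -0.18, Utp20 by -0.19 and the box C/D snoRNP gene Nop58 by -0.13. None of the 40 reached an unadjusted p under 0.05.

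Translation factor genes, several of which also carry a TOP tract, had 5 higher and 24 lower means among 29, with a median of -0.024 that ran from -0.047 without knock-out array 1 to -0.0022 without knock-out array 2. The helicase gene Eif4a1 differed by -0.24 and Eif4h by -0.081, and 0 of 29 had an unadjusted limma p under 0.05. Genes of growth control had a median of -0.032 over 16, 5 of them higher, and this ran from -0.054 without knock-out array 1 to -0.016 without wild-type array 5. Myc, a transcriptional activator of ribosome synthesis, was at 8.30 ± 0.25 in the knock-out and 8.51 ± 0.13 in the wild type (SD, n = 5 each; limma adjusted p = 0.841). Maf1, a repressor of RNA polymerase III, differed by 0.14 and Tsc1, an inhibitor of mTOR signalling, by -0.16. Proliferation genes had lower means in 10 of 10, with a median of -0.22. Of the 10, 3 had an unadjusted limma p under 0.05, against 5.98% of all genes. The part of proliferation genes in the lower medians of the biogenesis, translation factor and growth control lists was not tested.

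**Figure D5:**
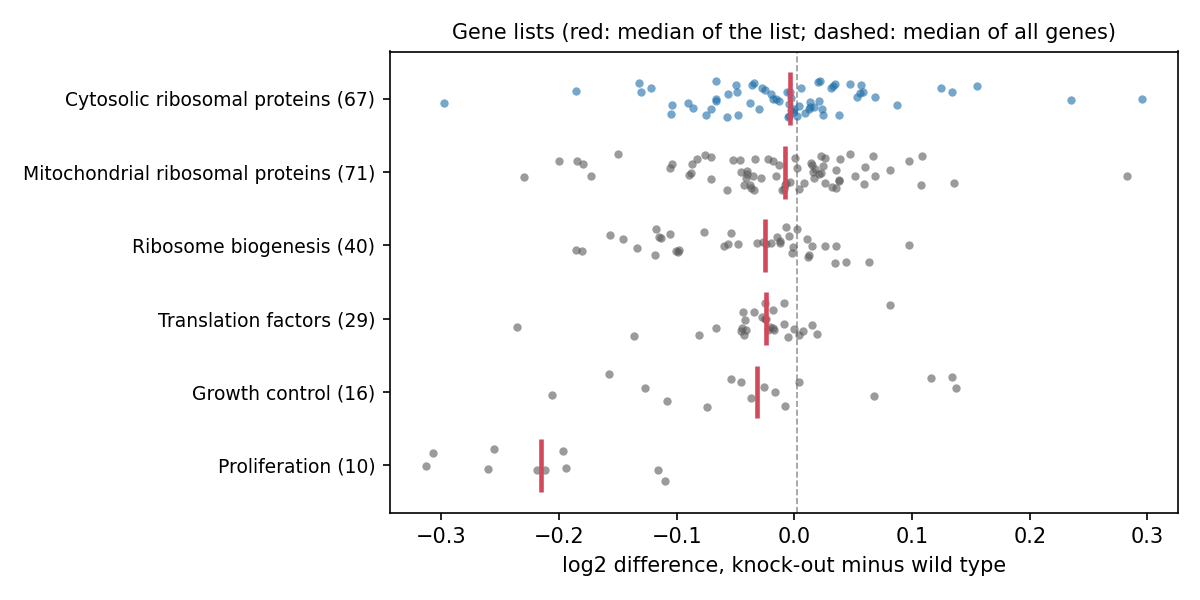
Log2 difference of every gene in 6 lists, with 1 point per gene, the list's median as a red bar and the median of all 22180 genes (0.0020) as a dashed line. The medians of the cytosolic (-0.0035) and mitochondrial (-0.0081) ribosomal protein genes lie close to 0, and that of the 10 proliferation genes lies at -0.22.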

How the data were processed

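The authors deposited 1 table of log2 signals for 41345 probe sets on 10 one-colour Affymetrix arrays; that the scale is log2 was judged from the values, and background correction, summarisation and normalization are not given in the sources used here. Gene names came from GEO's annotation of the array: 23521 probe sets had 1 symbol, 1814 several and 16010 none, and the last 2 kinds were left out. Each of 22180 genes is represented by its brightest probe set (mean of the 10 arrays), and 23328 of the 23521 single-symbol probe sets were found in a RefSeq gene table by their Entrez identifiers, with 0 symbols changed.

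Knock-out and wild type were compared with lmFit and eBayes in limma 3.58.1 (R 4.3.3) over all genes, with Benjamini-Hochberg adjustment and a threshold of 0.05. For single genes, all 252 divisions of the 10 arrays into 5 and 5 gave an exact permutation p (two-sided). The scripts were tested on simulated data. Precision is limited by how many arrays there are: the median standard error was 0.075 for the members and 0.10 for all genes. Promoter windows were taken from RefSeq (GRCm38.p6). Figures were drawn with matplotlib 3.10.9.

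The members and lists were chosen with earlier results of these data known. The genes named were the stalk proteins, Rpsa, the paralogues with their partners, members with known roles outside the ribosome, the 6 members of smallest p in each direction and the 4 of largest SD; of other lists, up to 3 of smallest p. Rpl36a, Rpl36al, Rps27a, Rpl13a and Rpl10 were to be named too but are not analysed here. Alternatives were quantile normalization, median centring, leaving out the dimmest 40% of genes, averaging probe sets, single probe sets, eBayes with trend and robust, weights per array, a block for replicate number, the Y-linked level as covariate, a threshold of 0.1 and leaving out each array. Deviations of arrays with the same replicate number correlated at -0.045 to 0.17 across genes, with 1 of 5 pairs over 0.1. Y-linked signal, in contrast, followed the numbers, being high on arrays 1 and 3 of both genotypes. The labels do not say that equal numbers are pairs, so the main fit did not take them as such. Whether they were matched cannot be told from these values.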

Additional observations from a re-analysis of the deposited data

Results flagged for a closer look

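Among 70 groups of 5 arrays tested (33 named members and 2 per-array summaries in both genotypes), 2 held an array far from the other 4; chance flags about 5% of groups. Rpl39 stood at 5.35 on knock-out array 1, while its other knock-out arrays lay between 5.09 and 5.15, and its difference of 0.057 came to 0.0075 without that array. Rps4l stood at 7.16 on wild-type array 5, while its other wild-type arrays lay between 7.55 and 7.66, and its difference of 0.24 came to 0.14 without it.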

How the results depend on the processing

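Limma passed no member at the adjusted threshold in any of the 18 other settings or at a threshold of 0.1. The median over all members ran from -0.016 to 0.0059. Of the 35 named members, 12 had a difference whose sign turned with some array left out. At an unadjusted p under 0.05 there was 1 lower member with trend and robust (Rps26) and 1 higher member with the replicate block (Rps15). With the block, Rps15 had a limma unadjusted p of 0.00741 and an adjusted p of 0.830. In each of these settings 5.84% of all genes lay under that level. The block changed no call. With single arrays left out the member counts ran from 0 to 1 in each direction, while 4.86% to 7.82% of all genes lay under that level. The higher members were Rps23rg1 without knock-out array 1, Rps4l without knock-out array 2 or 4, and Rps15 without knock-out array 5 or wild-type array 3. The lower one was Rpl3 without wild-type array 4. Members whose genotypes did not overlap numbered 2 with arrays centred on their median (Rps26 and Rps6) and 0 with averaged probe sets. With single arrays left out they numbered 1 to 3 (3 without wild-type array 1, 2 without knock-out array 4 or wild-type array 3). The share of all genes was not counted in these settings. With 1 array fewer, non-overlap arises more readily, so no change is read from these counts. Rps26 turned to 0.0057 with averaged probe sets, where its second probe set has the opposite sign, and Rpl7 moved to 0.13. Of 628 values for 35 named members under other settings, 626 kept their direction and side of the threshold or, where the difference was smaller than its standard error, stayed within 1 SD. That count was largely fixed in advance. Leaving out 1 of 5 arrays cannot move a difference by 1 SD, and trend and robust or the block leave the differences themselves unchanged. It is therefore not read as a measure of how firm the values are. The values carry no detection call, and whether the dim probe sets of Rpl32l, Rpl3l and Rps23rg1 exceed background was not tested.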
